A study of Mus musculus with 2 samples.

Results

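The Mir15, Mir16, Mir195 and Mir497 genes form a family of microRNAs that is known for restraining the cell cycle. Family here means the 6 genes of these names, out of 2202 annotated miRNA genes in the 2 small RNA libraries examined. The 6 genes lie at 3 genomic loci: Mir15a and Mir16-1, Mir15b and Mir16-2, and Mir497 and Mir195a. They were chosen by name, from the sense-strand counts and the gene names of GENCODE release M21, and the rule uses no measured value, although earlier results of these data were known when it was written. The libraries are microRNA-seq of the gastrocnemius, a calf muscle. They were made from male mice of the strain B6CASTF1/J, which is an F1 hybrid between C57BL/6J and CAST/EiJ, at an age of 10 days. The labels number them as biological replicates 1 and 2 of a single group, as separately numbered animals under 1 shared donor entry, with no treatment. There was therefore no comparison between conditions, and the results are levels with the spread over 2 libraries (n = 2 throughout).

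A microRNA gene is transcribed as a longer RNA that folds into a hairpin, from which a 5p and a 3p arm are cut. The arm that is loaded into the Argonaute protein finds its target transcripts mainly through its seed, bases 2 to 8. Targets described for this family include cyclins D and E, Cdk6, Chek1, Cdc25a and the survival factor Bcl2. Loss of Mir15a and Mir16-1 is a frequent lesion of chronic lymphocytic leukaemia, Mir195a rises in the mouse heart when cardiomyocytes leave the cell cycle after birth, and Mir195a with Mir497 has been linked to quiescence of muscle stem cells.

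All 6 genes carry the same seed on the 5p arm. The mature sequences are shown because the 6 genes share the seed and the bases behind it decide which reads can be told apart. They come from the RefSeq table of build GRCm38.p6, where all 6 genes had mature entries, 12 in all. The seed is in capitals, and Mir16-1 and Mir16-2 share 1 sequence, so that the 6 genes give 5 distinct 5p arms.
miR-15a-5p: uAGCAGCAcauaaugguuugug
miR-15b-5p: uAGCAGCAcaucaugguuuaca
miR-16-5p: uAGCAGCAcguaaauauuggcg
miR-195a-5p: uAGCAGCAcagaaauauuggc
miR-497a-5p: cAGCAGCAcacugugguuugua

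Behind the seed, the closest matches joined miR-16-5p with miR-195a-5p, and miR-15a-5p with miR-15b-5p and miR-497a-5p. Positions are counted from 1 at the 5′ end, and the matches below are over the whole arm, with the seed included. miR-16-5p and miR-195a-5p matched at 19 of 21 positions, with the substitutions G10A and U11G. miR-15a-5p matched miR-15b-5p at 18 of 22 positions (A12C, G20A, U21C and G22A) and miR-497a-5p at 17 of 22. miR-15b-5p matched miR-497a-5p at 16 of 22. Between the 2 groups, the match ran from 11 of 22 positions (miR-16-5p and miR-497a-5p) to 16 of 22 (miR-16-5p and miR-15a-5p). Each locus holds 1 gene of each group, with Mir15a, Mir15b or Mir497 first in the direction of transcription. The 3p arms shared no seed, with 6 distinct seeds in 6 genes.

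The loci differ in host and spacing. Mir15a (chromosome 14, 61632027 to 61632110, minus strand) and Mir16-1 (61631880 to 61631972) lie 54 nt apart in the long non-coding RNA gene Dleu2. Both are intronic in 8 of its transcripts (intron 4 of Dleu2-201), and Mir16-1 also overlaps the exon of Dleu2-215 by 13 nt. Mir15b (chromosome 3, 69009772 to 69009835, plus strand) and Mir16-2 (69009902 to 69009996) lie 66 nt apart in intron 5 of Smc4-201. Smc4 encodes a condensin subunit, a protein that compacts chromosomes for mitosis. Mir497 (chromosome 11, 70234717 to 70234800, plus strand) and Mir195a (70235042 to 70235135) are 241 nt apart, and M21 annotates no host gene on their strand. On the opposite strand, Mir497 lies within Mir497b. Coordinates are 1-based, in mm10.

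**Figure D1:**
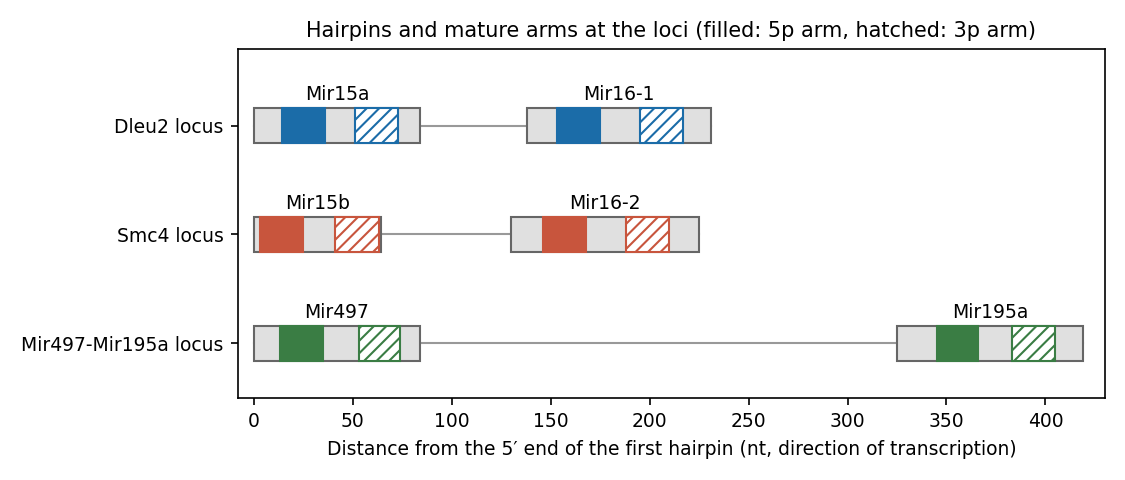
Hairpins (grey boxes) and mature arms (filled for 5p, hatched for 3p) at the 3 loci, by distance in nt from the 5′ end of the first hairpin in the direction of transcription. The Dleu2 and Smc4 pairs span 231 and 225 nt, and the Mir497-Mir195a pair spans 419 nt.

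One feature of these sequences bears directly on the counts. Reads that match several genomic places are counted for no gene in the deposited tables, and they were 47.0% of replicate 1 and 48.0% of replicate 2. The whole of miR-16-5p is present in both Mir16 genes. The hairpins share a stretch of 23 nt, which is shown in capitals with 6 nt of its surroundings on each side.
Mir16-1: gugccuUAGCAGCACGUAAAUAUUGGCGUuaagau
Mir16-2: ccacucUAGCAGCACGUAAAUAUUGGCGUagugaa

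A read that lies within the capitals fits both genes. The stretch runs 1 nt past the annotated end of the mature arm, so a read needs to reach beyond it, or to come from elsewhere in the hairpin, to be assigned. The 3p arms differ, and miR-16-2-3p shares at most 10 nt with another annotated miRNA gene and miR-16-1-3p at most 14 nt. The tables give 1 count per hairpin and do not separate the arms. The counts of Mir16-1 and Mir16-2 are therefore uncertain, and they can be too low by an unknown amount. The other 4 genes had no such stretch. The longest that Mir195a shared with another annotated hairpin was 16 nt, with Mir195b, and for Mir15a, Mir15b and Mir497 it was 12 to 13 nt. This search covered annotated miRNA hairpins and not the rest of the genome.

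The depth and the markers of the tissue were as follows. Replicate 1 had 3999172 and replicate 2 had 5062714 counts assigned to miRNA genes. Mir206, a miRNA specific to skeletal muscle, stood at 94022 ± 9301 counts per 1000000 assigned counts (CPM, mean ± SD). The other 8 listed muscle genes were far lower in assigned counts, from 1.67 ± 0.12 CPM for Mir133a-2 to 247 ± 77 CPM for Mir499. Reads that match several genomic places are counted for no gene. Copies such as Mir1a-1 and Mir1a-2 or Mir133a-1 and Mir133a-2 can therefore be too low, and shared stretches were not searched for them. Of the markers of other cell types, the endothelial genes summed to 55784 and 67925 CPM in replicates 1 and 2, the smooth muscle genes to 24571 and 29713 CPM, 4 leukocyte genes to 423 and 447 CPM, and the epithelial genes to 87.0 and 67.9 CPM. The neural genes were near 0 (0.50 and 1.38 CPM, with Mir9-2, Mir124a-2 and Mir124a-3 at 0 counts). They are numbered copies of Mir9 and Mir124a, whose reads can also match several genomic places. How much neural RNA was present cannot be judged from these counts. The erythroid genes Mir451a and Mir144 summed to 1680 and 4088 CPM, and the hepatocyte Mir122 was at 103 and 272 CPM, both higher in replicate 2.

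All 6 family genes reached the minimum of 10 counts in each library and are called detected, at moderate levels that were closely reproduced in CPM. Together they had 12172 counts in replicate 1 and 15584 in replicate 2, which was 0.304% (exact 95% interval 0.299 to 0.310) and 0.308% (0.303 to 0.313) of the assigned counts. The mean was 0.306% ± 0.0024. Intervals here and below cover counting error only, since the tables hold reads without molecular identifiers. The muscle was taken whole, so fewer cells that express a gene and less RNA per cell cannot be told apart.

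At the Dleu2 locus, the 2 genes had similar levels in assigned counts, which can be too low for Mir16-1. Mir16-1 had the highest level of the 6, with 2930 counts in replicate 1 and 3907 in replicate 2, or 733 and 772 CPM (752 ± 28). Mir15a had 2412 and 3112 counts, or 603 and 615 CPM (609 ± 8.2). The libraries did not overlap between the genes, and Mir16-1 was the higher in both. They ranked 81 and 90 among all genes.

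At the Smc4 locus, the partners lay far apart in assigned counts, which can be too low for Mir16-2. Mir15b had 1686 and 2204 counts, or 422 and 435 CPM (428 ± 9.7). Mir16-2 had 467 and 647 counts, or 117 and 128 CPM (122 ± 7.8), the lowest level of the family. It ranked 162, against 100 for Mir15b, and was the 1 member below the median of 135 CPM over the 313 detected genes.

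At the Mir497-Mir195a locus, Mir195a had 2535 and 2986 counts, or 634 and 590 CPM (612 ± 31), and ranked 89. Mir497 had 2142 and 2728 counts, or 536 and 539 CPM (537 ± 2.3), and ranked 96. Mir195a was higher than Mir497 in both libraries, and it was the 1 member with the lower CPM in replicate 2. In CPM, Mir497 was the most closely reproduced, with an SD of 0.43% of its mean. The largest relative SD in the family was 6.37%, for Mir16-2, and all 6 were below the median of 7.77% over the detected genes. CPM rest on plain library totals. With the TMM scaling used below to compare the libraries, Mir195a was the closest to no change (log2 ratio -0.03). The log2 ratio of Mir16-2 (0.20) then exceeded the median absolute value of 0.157 over the 332 genes tested, and those of the other family genes did not.

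**Figure D2:**
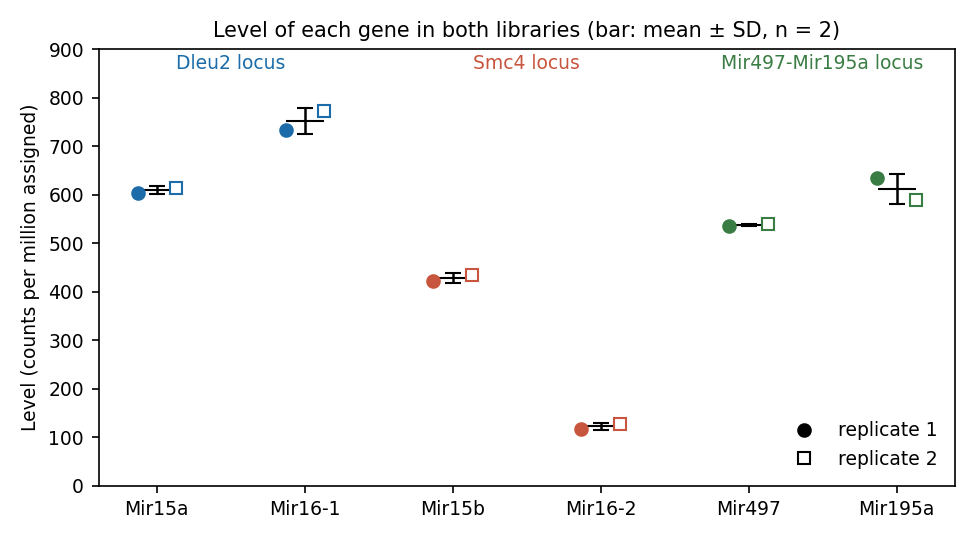
Level of each gene in CPM on a linear axis from 0, for replicate 1 (filled circles) and replicate 2 (open squares), with mean ± SD (n = 2) as black bars. Mir16-2 lies at 117 and 128 CPM, apart from the other 5 genes, which lie between 422 and 772 CPM.

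The descending order of the mean CPM was Mir16-1, Mir195a, Mir15a, Mir497, Mir15b and Mir16-2. Mir195a and Mir15a did not differ beyond their spread, since their means were 2.93 CPM apart and their order changed between the libraries. The other neighbours in the order did not overlap, with differences of 71.7 CPM (Mir15a and Mir497) to 306 CPM (Mir15b and Mir16-2). From the top to the bottom the means spanned 6.15-fold. A read covers about 1 arm of a hairpin, so CPM were compared without regard to length first. Divided by hairpin length, which ranges from 64 nt for Mir15b to 95 nt for Mir16-2, and scaled to 1000000 over all genes, the order changed in the middle. On that scale Mir16-1 led with 622 ± 24, followed by Mir15a with 558 ± 8.5, Mir15b with 515 ± 13, Mir195a with 501 ± 25, Mir497 with 492 ± 3.0 and Mir16-2 with 99.1 ± 6.5. Mir195a overlapped both Mir15b and Mir497 on that scale, at 518 in replicate 1 (Mir15b 506) and 484 in replicate 2 (Mir497 494), so these 3 have no firm order. The gap between Mir16-2 and the rest was present on both scales, and both use its assigned counts, which can be too low.

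The genes nearest in mean CPM, by the absolute difference of log2 means over 2 libraries, were as follows. For Mir195a they were Mir501 (612 ± 79 CPM, a log2 difference of 0.0015) and Mir15a itself. For Mir15a the next gene below was Mir484 (607 ± 58 CPM). Mir770 (758 ± 11 CPM) and Mir1193 (734 ± 46 CPM) flanked Mir16-1, and Mir338 (447 ± 37 CPM) and Mir146 (424 ± 29 CPM) flanked Mir15b. Mir497 lay between Mir674 and Mir380, and Mir16-2 between Mir221 and Mir130b.

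By locus, Dleu2 held the largest part of the family's counts and Smc4 the smallest. The Dleu2 pair took 43.9% (exact 95% interval 43.0 to 44.8) in replicate 1 and 45.0% (44.3 to 45.8) in replicate 2. The Mir497-Mir195a pair took 38.4% (37.6 to 39.3) and 36.7% (35.9 to 37.4). The Smc4 pair took 17.7% (17.0 to 18.4) and 18.3% (17.7 to 18.9). The order was the same in both libraries, and each gap was larger than the SDs of 0.43 to 1.2 percentage points. It rests on the uncertain Mir16 genes. Without Mir16-1 and Mir16-2, a setting chosen after seeing the data, the Mir497-Mir195a locus led with 52.6% of the remaining counts, with Dleu2 at 27.9% and Smc4 at 19.6%.

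The ratio of the partners within a locus does not depend on how the libraries are scaled. Mir16-1 was counted 1.21 times as often as Mir15a in replicate 1 and 1.26 times in replicate 2. For Mir195a over Mir497 the ratios were 1.18 and 1.09, and for Mir15b over Mir16-2 they were 3.61 and 3.41. In assigned counts, the Smc4 pair thus had the opposite balance to the Dleu2 pair, with the Mir15 gene above its Mir16 partner. The counts of Mir16-1 and Mir16-2 can be too low by an unknown amount, which need not be equal. Missing reads of Mir16-1 would raise its ratio to Mir15a. Missing reads of Mir16-2 would lower the ratio of Mir15b to it, and could remove or reverse the balance of the Smc4 pair. This was not tested. No ratio differed between the libraries beyond counting error. By two-sided Fisher's exact tests, adjusted over the 3 loci, the log2 change was 0.05 for Dleu2 (95% interval -0.06 to 0.15, adjusted p = 0.41), -0.08 for Smc4 (-0.28 to 0.11, adjusted p = 0.41) and -0.11 for Mir497-Mir195a (-0.23 to 0.00024, adjusted p = 0.151).

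Between the loci, the paralogous genes differed to unequal degrees. Mir15a was counted 1.43 and 1.41 times as often as Mir15b in replicates 1 and 2. Mir16-1 was counted 6.27 and 6.04 times as often as Mir16-2. The first ratio compares genes whose reads can be told apart. The second compares the part of the reads that falls outside the shared 23 nt, and how many reads of miR-16-5p came from each gene was not tested.

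The 6 family genes hold a minor part of the counts of the genes that have their seed. These are counts per hairpin, so they can include reads of the other arm, which lack the seed. Of 1738 mature entries in the RefSeq table, 11 have this seed, from 11 genes. The 5 genes outside the 6 chosen by name are Mir322, Mir195b, Mir6342, Mir6353 and Mir6419, and all are in the count tables. Mir322, an X-linked gene of the Mir322-Mir503 cluster, is shown with Mir195b, which has the closest sequence to a family member among them.
miR-322-5p: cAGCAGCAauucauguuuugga
miR-195b: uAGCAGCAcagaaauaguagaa

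Mir322 had 57697 counts in replicate 1 and 91470 in replicate 2, or 14427 and 18067 CPM. It took 82.6% and 85.4% of the counts of genes with the seed, and the 6 family genes took 17.4% (exact 95% interval 17.1 to 17.7) and 14.6% (14.3 to 14.8). Mir322 was thus counted 4.74 and 5.87 times as often as the 6 family genes together, whose share can be too low because of the Mir16 genes. All 11 genes with the seed held 1.93% ± 0.26 of the assigned counts (mean ± SD). Of the family's 5p arms, miR-322-5p was closest to miR-15b-5p, with which it shares 16 of 22 positions, and 9 of 14 behind the seed. Mir195b, Mir6342, Mir6353 and Mir6419 had 0 counts in both libraries, which allows up to 0.75 CPM in replicate 1 and 0.593 CPM in replicate 2. miR-195b differs from miR-195a-5p by U17G, G19A and C21A, so the full arms can be told apart.

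**Figure D3:**
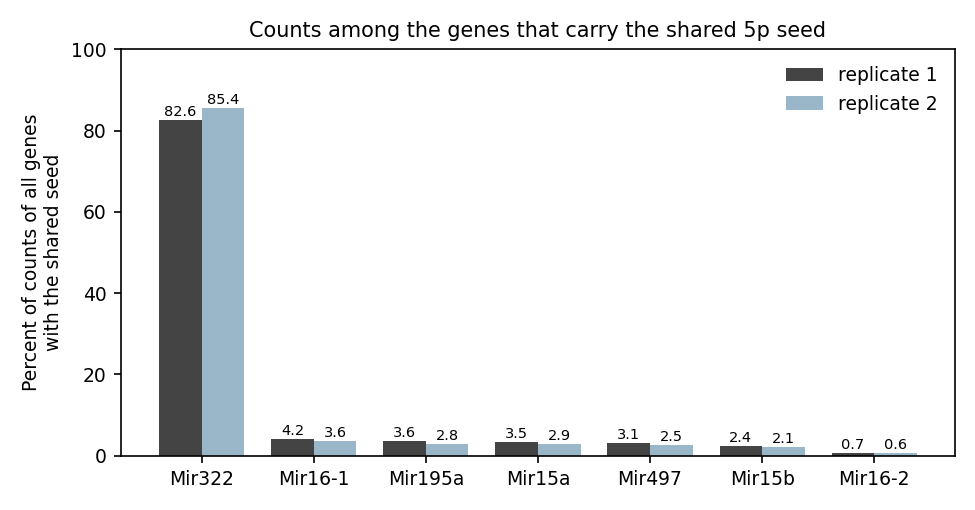
Percent of the counts of all genes with the shared 5p seed that fell to each gene, on a linear axis from 0, with dark bars for replicate 1 and light bars for replicate 2. Mir322 holds 82.6% and 85.4%, and no family gene exceeds 4.2%. The 4 genes at 0 counts are left out.

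Mir497 is the family gene whose value depends on the strand. It overlaps Mir497b, and in the column that ignores strand Mir497 has 0 counts in both libraries, because its reads are ambiguous there. In the sense column it has 2142 and 2728 counts, and Mir497b has 0. No read on the opposite strand was found at any of the 6 genes in either library. The other 5 genes have equal counts in both columns.

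The family genes differed little between the 2 libraries. Each gene's counts were tested with an exact binomial test (two-sided), given library totals scaled by TMM, with adjustment over the 332 genes whose mean count reached 10. It measures counting error and compares these 2 libraries, not conditions. Of all genes tested, 39.5% passed, 27.1% as higher and 12.3% as lower in replicate 2. The split rests on the scaling, with 90 genes higher and 41 lower here and 62 higher and 79 lower with plain library totals. Of the 6 family genes, 3 passed, all as higher in replicate 2, against 39.5% of all genes in either direction and 27.1% as higher. Their median log2 ratio was 0.11, against 0.02 over all genes tested.

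In replicate 2, Mir16-1 was 1.11-fold higher, a log2 ratio of 0.15 (95% interval 0.08 to 0.22) with an exact binomial adjusted p = 0.000163. Mir15b was 1.08-fold higher (log2 0.12, interval 0.03 to 0.21, exact binomial adjusted p = 0.0326), and Mir15a 1.07-fold (log2 0.10, interval 0.02 to 0.18, exact binomial adjusted p = 0.0326). These are the Dleu2 pair and 1 gene of Smc4. Mir16-2 gave the highest log2 ratio, 0.20 (0.03 to 0.38), and did not pass at its lower count (exact binomial adjusted p = 0.0545). Mir497 gave 0.08 (-0.0023 to 0.16) and Mir195a -0.03 (-0.11 to 0.04), with exact binomial adjusted p = 0.121 and 0.54.

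These calls depended on the scaling. With plain library totals, none of the 3 passed, with log2 ratios of 0.07 (Mir16-1), 0.05 (Mir15b) and 0.03 (Mir15a), and Mir195a passed instead, as lower (-0.10, exact binomial adjusted p = 0.0213). The edgeR exact negative binomial test, whose dispersion was estimated from this pair of libraries, passed 6 of the 332 genes (1.81%). It passed 0 of the family genes. At an unadjusted p under 0.05 in that test, 23 of the 332 genes passed and 0 of the family genes did (lowest 0.506). Some markers of other cell types were also higher in replicate 2, and others were not. The log2 ratio was 1.48 for the hepatocyte Mir122, 1.38 and 0.86 for the erythroid Mir451a and Mir144, 0.36 for the endothelial Mir126a and 0.35 for the smooth muscle Mir143. Both leukocyte genes that passed the exact binomial test, Mir142 and Mir155, were higher (0.34 and 0.21), and the epithelial Mir205 was lower (-1.19). The smooth muscle Mir145a (-0.05), the leukocyte Mir223 (-0.04) and Mir150 (-0.05), and the epithelial Mir203 (-0.20) and Mir200c (-0.11) did not pass. Of the 8 muscle genes tested, 4 were higher and 1, Mir206, was lower (-0.13). The part of these markers in the differences of the family genes was not tested.

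**Figure D4:**
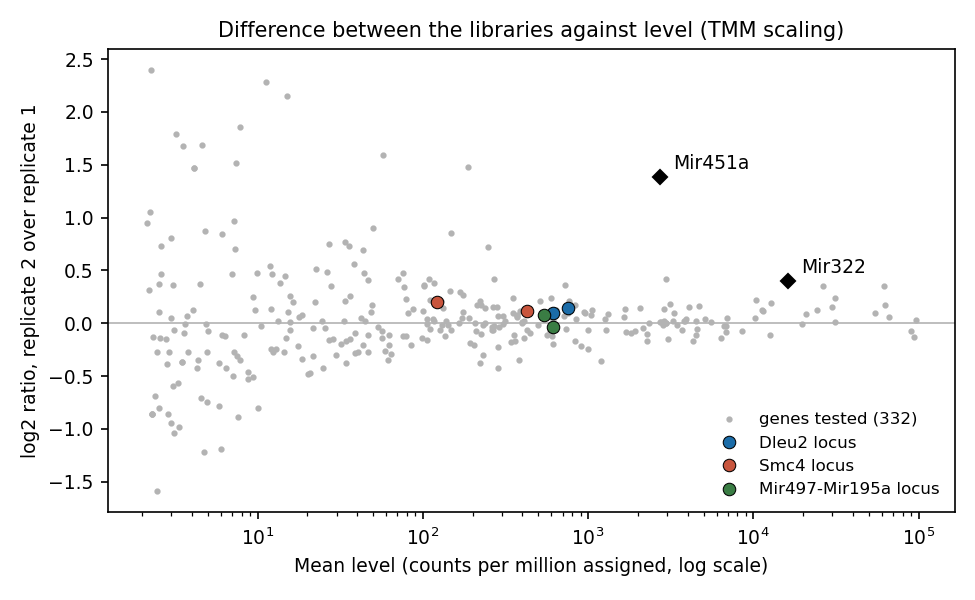
log2 ratio of replicate 2 over replicate 1 with TMM scaling against mean level in CPM (log axis) for the 332 genes tested (grey), with the family coloured by locus and Mir322 and Mir451a as black diamonds. The 6 family genes lie between -0.03 and 0.20, near the centre of the cloud, while Mir451a lies at 1.38.

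**Figure D5:**
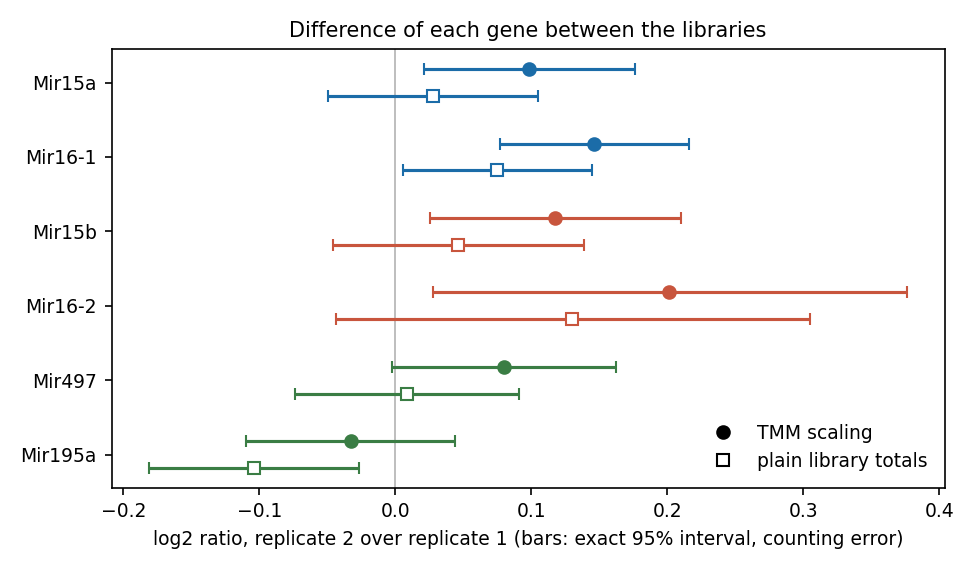
log2 ratio of replicate 2 over replicate 1 for each family gene with exact 95% intervals (counting error), with TMM scaling (filled circles) and plain library totals (open squares). Plain totals move every gene down by the same amount, so that the intervals of Mir15a, Mir15b and Mir16-2 come to include 0 and that of Mir195a comes to exclude it.

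Other miRNAs known to act on cell-cycle genes were compared as a listed group of 12, the let-7 gene Mirlet7b and the Mir26, Mir34, Mir449 and Mir322-Mir503 genes. Of the 9 tested, 4 were higher and 2 lower in replicate 2, with a median log2 ratio of 0.06, against 27.1% higher and 12.3% lower over all genes tested. With plain library totals 3 were higher and 2 lower, against 62 higher and 79 lower of the 332 genes tested. With the edgeR negative binomial test 0 passed, against 6 of the 332. At an unadjusted p under 0.05 in that test 0 passed (lowest 0.149), against 23 of the 332. The 4 with the highest level in assigned counts were Mir322, Mirlet7b (11283 ± 280 CPM), Mir26b (10403 ± 749 CPM) and the p53-responsive Mir34a (285 ± 68 CPM). Mir503 lay within the spread of Mir34a, at 283 ± 40 CPM. Mir26a-1 (2.39 CPM) and Mir26a-2 (17.7 CPM) are numbered copies and can be too low, since reads that match several genomic places are not counted. Mir322, Mirlet7b and Mir26b each exceeded the sum over the family (3061 ± 24 CPM), while Mir34a lay below every family gene except Mir16-2. Mir34a was lower in replicate 2 (log2 -0.42) and Mir322 higher (log2 0.40). Mir449b and Mir449c had 0 counts in both libraries.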

How the data were processed

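For each library the authors deposited raw counts of reads for 2202 miRNA genes, with 4 summary rows and 3 count columns (unstranded, sense and opposite strand). Assembly mm10 and annotation GENCODE M21 were named in the metadata text deposited with the tables. An aligner or counter is not given in the sources used. The sense column was used, since it exceeded the opposite column 5.61-fold and 5.47-fold and had 0 ambiguous reads. The opposite column also counts sense reads of a gene that overlaps another on the other strand, as with Mir497 and Mir497b. Its totals, 712997 and 925866, were close to the ambiguous reads of the unstranded column, 712960 and 925823. They are therefore not a measure of antisense reads. The summary rows held 58.7% and 60.7% of all reads and were left out of the totals. CPM are counts per 1000000 assigned counts. The counts of the libraries differed beyond sampling noise, so they were kept as separate samples (chi-square 85.7 per degree of freedom, 331 degrees of freedom). The p-values measure counting error, or the spread between these 2 samples in the negative binomial test.

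The members, which are defined by name, and the lists were chosen with earlier results of these data known. Named genes are the members, their opposite-strand overlaps, genes with the same seed, the nearest genes in level, markers, and the 4 leading genes of a list of cell-cycle miRNAs. Shared stretches were searched on both strands of the M21 hairpins. Tests were the exact binomial and Fisher's exact test, with Benjamini-Hochberg adjustment at 0.05. The binomial test was tested on simulated counts with counting error only. The libraries also differ beyond counting error, so the simulation does not give the error rate of the test here. A count of 0 allows up to 3 counts. The software was Python 3.11.15, pandas 2.3.3, numpy 2.4.6, scipy 1.17.1, R 4.3.3, edgeR 4.0.16 and DESeq2 1.42.0 (size factors). The alternatives were the unstranded column, other scalings, count minimums and denominators, division by hairpin length, each library alone and a negative binomial test. The CAST/EiJ alleles were aligned to the C57BL/6J assembly, and the effect of this was not tested.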

Additional observations from a re-analysis of the deposited data

Results flagged for a closer look

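Columns and rows that the family's counts do not come from hold the following. Reads with several genomic matches, which are assigned to no gene, made up 47.0% of replicate 1 and 48.0% of replicate 2, and any read that lies within the 23 nt shared by Mir16-1 and Mir16-2 belongs to this class. In the opposite-strand column, Mir497b has 2142 and 2728 counts, which equal the sense counts of Mir497 and are the same reads, not a further signal.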

How the results depend on the processing

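With all reads as the denominator, the family's share was 0.123%, and without Mir16-1 and Mir16-2 it was 0.219%. The shares of the Dleu2, Smc4 and Mir497-Mir195a loci were 53.9%, 21.8% and 24.3% in the unstranded column, where Mir497 has no counts, 42.3%, 22.0% and 35.6% per hairpin length, and 27.9%, 19.6% and 52.6% without the Mir16 genes. The ratio of Mir195a to Mir497 could not be formed in the unstranded column. The binomial test called 131 genes and the negative binomial test 6, and the larger spread that the latter allows follows from its construction. The calls of Mir15a and Mir15b were also lost when every gene with a count was tested (adjusted p = 0.0673 for both, at log2 ratios of 0.10 and 0.12 as before), where the adjustment covers 696 genes in place of 332. That of Mir15a was lost in the unstranded column (log2 0.09, exact binomial adjusted p = 0.0513). Its counts are the same there, while the scaled library totals and the number of genes in the adjustment (304) differ. Which of these moved it across the threshold was not tested. DESeq2 size factors and a minimum mean of 5 counts left the side of the threshold of all 6 genes as with TMM. The values of each library alone are those given per replicate in the results. A comparison of the libraries without 1 of them is not possible, and no paired analysis was possible because there is 1 group. With 467 and 647 counts, Mir16-2 has the widest interval.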
